A study of Mus musculus with 12 samples.

Results

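Glucose reaches the energy metabolism of a heart muscle cell through a chain of carriers and enzymes, and the messenger RNAs of 35 genes of that chain were followed in mouse cardiomyocytes, of 55335 genes listed in the count files. The 35 genes were taken from a fixed list, which was chosen with earlier results of these data known. All 35 were found by their Ensembl identifiers in a GRCm38 annotation. They comprise 2 glucose transporters, 2 hexokinases, 7 genes of upper glycolysis, 7 of lower glycolysis, 4 genes of lactate and its carriers, 3 regulators of fructose bisphosphate, 7 genes of pyruvate entry into mitochondria and 3 genes of glycogen. Of these, 34 had enough counts for testing. Aldoc, an aldolase mainly of brain, did not, with at most 0.275 CPM (counts scaled to library size) in any library.

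Male C57BL/6J (WT) and ApoE KO mice (B6.129P2-Apoe tm1Unc/J, which carry a disrupted Apoe gene in every cell) were 7 to 8 weeks old at the start and received standard chow (CD) or a Western-type high fat, high cholesterol diet (HFD) for 7 weeks. Cardiomyocytes gave 3 libraries in each of the 4 groups WT_CD, WT_HFD, ApoeKO_CD and ApoeKO_HFD. Whether each library is a mouse of its own is not stated in the labels. The p-values therefore measure the spread between these libraries only, and that spread may be technical.

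In 11 of the 12 libraries the totals were 22130323 to 46424614 counts, of which 51.5% to 71.3% fell on the mitochondrial genome. The library labelled WT_HFD replicate 3 held 1347110 counts. It had 4 counts for Mpc1 and 1429 for 4930506C21Rik, a gene that overlaps Mpc1 on the other strand, where the other 11 libraries had 1201 to 3308 and 2 to 16. It was left out, so WT_HFD rests on 2 libraries. Apoe, scaled by library size with the TMM method, was 2.91, 2.12 and 3.61 CPM in WT_CD, 18.9 and 8.44 in WT_HFD, 25.3, 23.9 and 6.93 in ApoeKO_CD and 1.94, 3.02 and 3.16 in ApoeKO_HFD. On chow, then, the libraries labelled ApoE KO were above those labelled WT, which goes against the labels, and every direction below is one between libraries so labelled. Cardiomyocyte markers (Myh6, Myl2, Tnnt2 and 7 others) summed to 89466 to 105331 CPM, against 61.1 to 159 CPM for 10 endothelial markers and 17.2 to 40.4 CPM for 8 fibroblast markers.

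Glucose enters heart muscle through the insulin-regulated carrier GLUT4 and the constitutive carrier GLUT1, is trapped by hexokinase, committed to glycolysis by phosphofructokinase and split to pyruvate. Pyruvate either becomes lactate or enters mitochondria through the mitochondrial pyruvate carrier, where the pyruvate dehydrogenase complex turns it into acetyl-CoA and pyruvate dehydrogenase kinases switch that complex off. The adult heart draws most of its energy from fatty acids, and fat oxidation is known to hold glucose use back at the pyruvate dehydrogenase step.

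No gene of the 34 tested was called in any of the 5 comparisons between groups, nor for the interaction of diet with genotype, in edgeR's quasi-likelihood test (a call is a Benjamini-Hochberg adjusted p under 0.05 over all 16932 genes tested). The test called 0.154% of all genes between ApoeKO_HFD and WT_CD, 0.207% between WT_HFD and WT_CD, 0.508% between ApoeKO_CD and WT_CD, 0.0709% between ApoeKO_HFD and ApoeKO_CD, 0.0472% between ApoeKO_HFD and WT_HFD, and 0.219% for the interaction, so a count of 0 among 34 genes is near the background. At an unadjusted p under 0.05 there were 4 of 34 glucose genes between ApoeKO_HFD and WT_CD (14.2% of all genes), 2 between WT_HFD and WT_CD (12.9%), 2 between ApoeKO_CD and WT_CD (15.9%), 0 between ApoeKO_HFD and ApoeKO_CD (1.53%), 1 between ApoeKO_HFD and WT_HFD (2.83%) and 0 for the interaction (8.2%).

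The median log2 fold change over the 34 genes lay between 0.01 and 0.05 in the 6 comparisons, where that over all genes tested lay between −0.01 and 0.02. Between ApoeKO_HFD and WT_CD, 19 of 34 genes had a log2 fold change above 0, against 49.3% of all genes. The 95% interval of the fold change lay within 2-fold in either direction for 32 of 34 genes between ApoeKO_HFD and WT_CD, and Slc2a1 and Slc16a3 were the exceptions. It lay within 1.5-fold for 21 of 34 genes in that comparison and for 29 of 34 between ApoeKO_HFD and ApoeKO_CD. For most of these genes, then, a change of 2-fold or more lies outside the interval, while smaller ones remain possible.

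**Figure D1:**
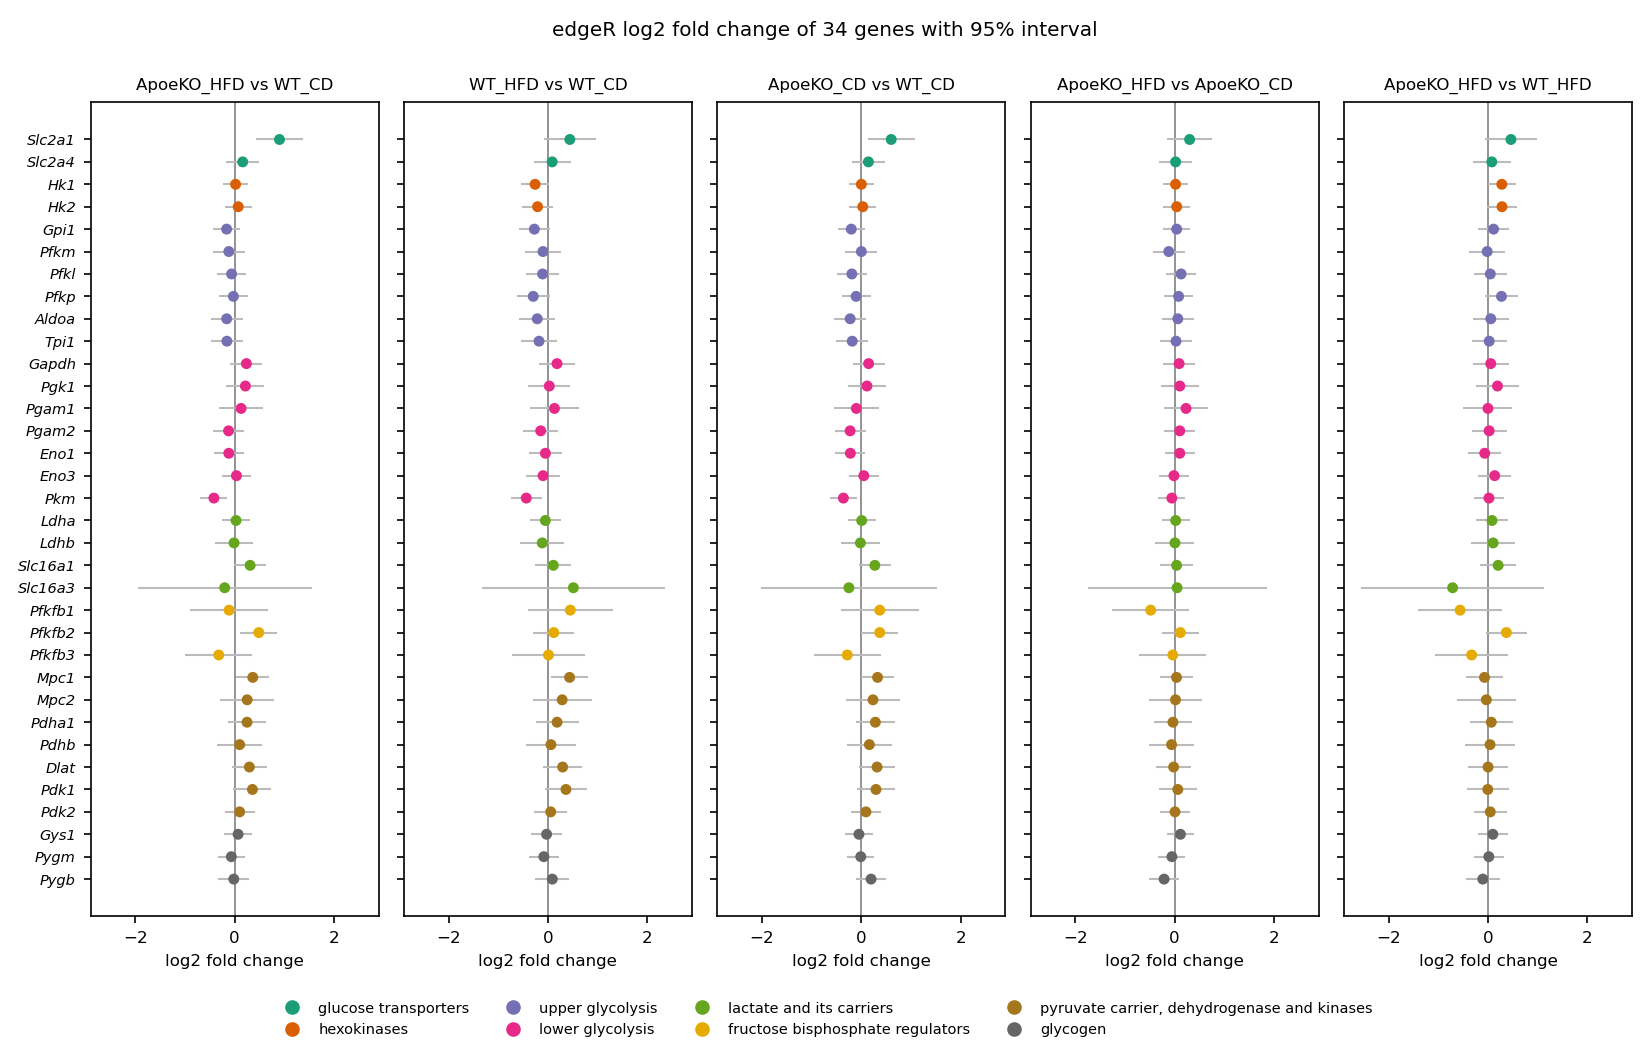
Fitted log2 fold change (x axis) of the 34 genes tested (y axis, in pathway order and coloured by role) in the 5 comparisons between groups, with grey bars for the 95% interval. Slc2a1 has the highest value of the 34 for ApoeKO_HFD and ApoeKO_CD against WT_CD, Pkm lies left of 0 in the 3 comparisons against WT_CD, and the 7 genes of pyruvate entry lie right of 0 in the same 3 comparisons.

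Signs of other cells and of handling were compared between the same groups. The 12 immediate early genes, which respond to cell isolation, summed to 579 to 798 CPM in WT_CD, 571 to 831 CPM in WT_HFD, 425 to 547 CPM in ApoeKO_CD and 362 to 522 CPM in ApoeKO_HFD. Neither group labelled ApoE KO overlapped either group labelled WT. The 8 fibroblast markers summed to 21.8 to 30.2 CPM in WT_CD and 36.0 to 40.4 CPM in WT_HFD, which do not overlap. The 8 pericyte and smooth muscle markers summed to 174 to 247 CPM in WT_CD and 263 to 273 CPM in ApoeKO_HFD. Abcc9, which heart muscle cells express too, made up most of that sum, and the 7 others summed to 31.8 to 48.1 CPM and 37.7 to 47.3 CPM, which overlap. The 8 atrial genes summed to 114 to 192 CPM in WT_CD and 69.1 to 135 CPM in ApoeKO_HFD. In the same order, the 10 macrophage genes summed to 10.8 to 19.99 CPM and 8.55 to 11.997 CPM. In ApoeKO_CD the atrial genes summed to 163 to 182 CPM, which does not overlap ApoeKO_HFD. The 10 cardiomyocyte markers did not overlap there either, at 101112 to 105331 CPM in ApoeKO_CD and 92174 to 99950 CPM in ApoeKO_HFD. The endothelial, fibroblast and macrophage sums of those groups overlapped. The macrophage sum was 32.8, 30.7 and 6.12 CPM in ApoeKO_CD, so only replicate 3 reached down to ApoeKO_HFD. All 9 macrophage genes tested had a log2 fold change below 0 there (median −1.18). Of the endothelial markers 9 of 10 were above 0 (median 0.32) and of the fibroblast markers 7 of 8 (median 0.10), against 51.2% of all genes. None of these markers was called. The part of these in the differences of the glucose genes was not tested.

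Isozymes known of striated muscle had the highest levels, beside others. Levels of different genes were compared as TMM-scaled CPM per kilobase of exon, averaged over 11 libraries. Ldhb, the heart form of lactate dehydrogenase, stood first at 234 CPM per kilobase, followed by Pgam2, the muscle phosphoglycerate mutase, at 183, Aldoa, the muscle aldolase, at 179.9 and Eno3, the muscle enolase, at 126. The next were Pdha1, a catalytic subunit of pyruvate dehydrogenase, at 96.4, Pfkm, the muscle phosphofructokinase, at 96.3, and Pygm, the muscle glycogen phosphorylase, at 92.6. At the low end stood Slc2a1 at 1.45, Pfkfb3 at 0.29, Slc16a3 at 0.0366 and Aldoc at 0.0279.

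Among the genes listed for each family, the same one led in nearly every library. Slc2a4 made up 95.6% of the summed length-scaled level of Slc2a1 and Slc2a4 (94.4 to 97.2% in the 11 libraries), and Hk1 17.5% of Hk1 and Hk2 (15.1 to 20.01%). Pfkm made up 92.5% of the 3 phosphofructokinase genes, Pgam2 98.9% of Pgam1 and Pgam2, and Eno3 96.4% of Eno1 and Eno3. Ldhb made up 87.2% of Ldha and Ldhb, and Pdk2 83.4% of Pdk1 and Pdk2. Pdk4, outside that pair, had group means of 200 to 442 CPM without length scaling, against 135 to 145 for Pdk2. Mpc1 made up 78.6% of Mpc1 and Mpc2, which together encode the pyruvate carrier and are not isozymes. With no length scaling that share was 51.2% (43.9 to 56.2% in the 11 libraries). Pygm made up 60.8% of Pygm and Pygb, so the phosphorylase named for brain was present beside the muscle one, and the Pygm share was 61.5 to 64.2% in WT_CD and 57.6 to 59.9% in ApoeKO_CD. Aldoa and Slc16a1 made up over 99% of their pairs. The least even family was that of Pfkfb1, Pfkfb2 and Pfkfb3, in which Pfkfb2, the heart form, took 59.2% on average and 37.8% in ApoeKO_CD replicate 2, the library with the highest Pfkfb1. These shares rest on the exon length used.

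**Figure D2:**
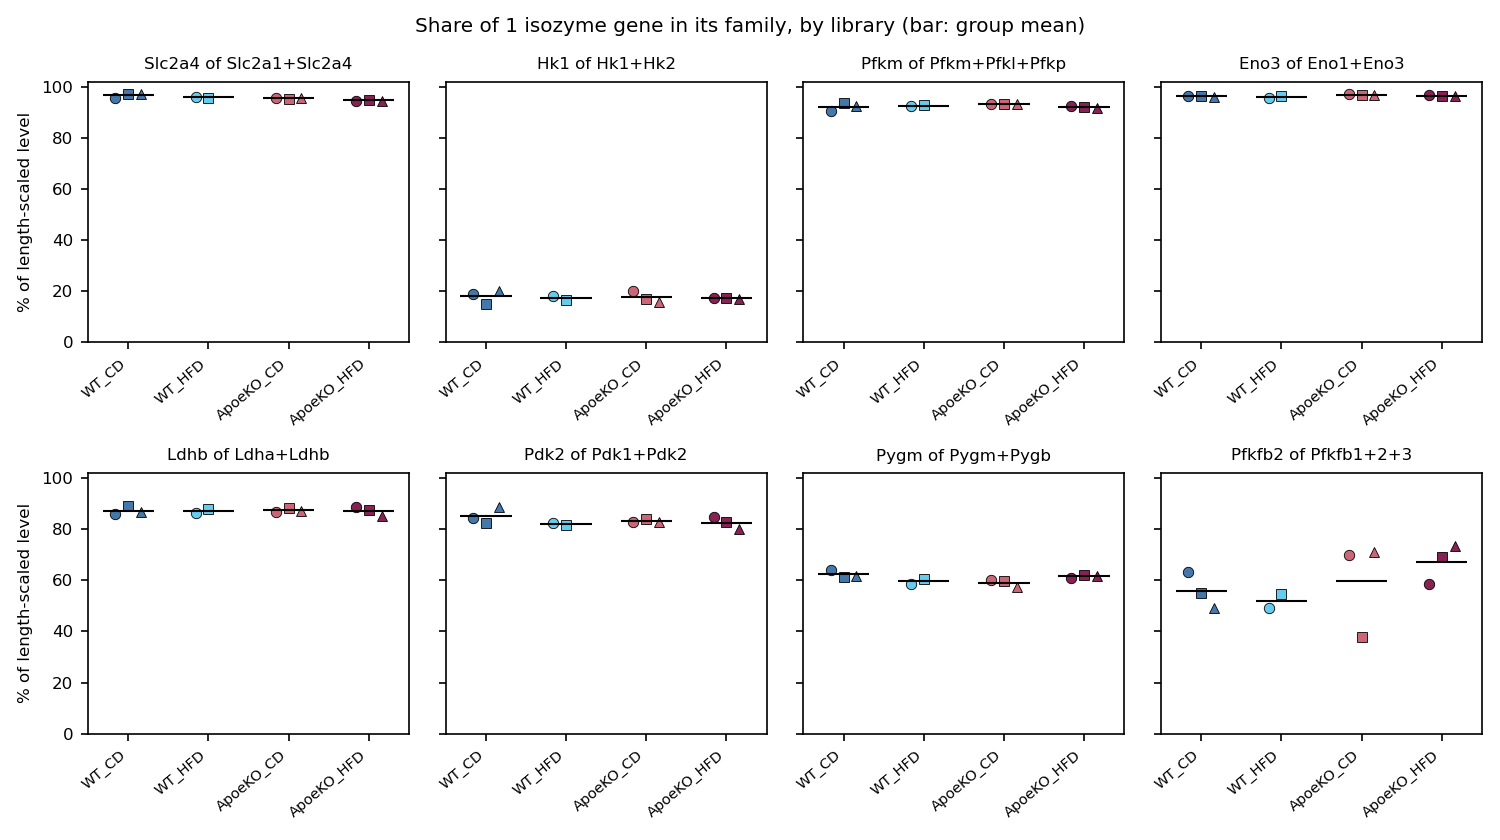
Share of 1 isozyme gene in the summed length-scaled level of the listed genes of its family (y axis, percent) in each library of the 4 groups (x axis), with the group mean as a bar and the replicate number as the symbol. Pdk4 is not among the listed genes. The Slc2a4 share is 95.7 to 97.2% in WT_CD and 94.4 to 94.9% in ApoeKO_HFD, and Pfkfb2 scatters most.

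Slc2a1 encodes GLUT1 (ENSMUSG00000028645; GRCm38 chr4:119108711-119137983, plus strand). Its level was 4.52, 3.45 and 2.56 CPM in WT_CD, 4.49 and 5.08 in WT_HFD, 4.11, 5.96 and 6.02 in ApoeKO_CD and 8.13, 5.71 and 5.91 in ApoeKO_HFD. The 3 libraries of ApoeKO_HFD were all above the 3 of WT_CD, while ApoeKO_CD replicates 2 and 3 lay in the range of ApoeKO_HFD, and WT_HFD replicate 1 and ApoeKO_CD replicate 1 in that of WT_CD. The log2 fold change was 0.90 (SE 0.23, adjusted p = 0.112) between ApoeKO_HFD and WT_CD, the smallest unadjusted p of the 34 genes in that comparison, and it missed the threshold. It was 0.60 (SE 0.23, adjusted p = 0.211) between ApoeKO_CD and WT_CD and 0.44 (SE 0.25, adjusted p = 0.463) between WT_HFD and WT_CD. All 3 comparisons share the WT_CD libraries. Between ApoeKO_HFD and ApoeKO_CD, the comparison of diets within the libraries labelled ApoE KO, it was 0.30 (SE 0.22, adjusted p = 1.00), and those groups overlapped.

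Slc2a1 rested on 68 to 340 counts a library. DESeq2 called it between ApoeKO_HFD and WT_CD (adjusted p = 0.0368), as did edgeR's test with no filter on low counts (0.00239) and without WT_CD replicate 2 (0.0367). Over 14 alternatives the adjusted p ran from 0.00239 to 0.999, the last with all 12 libraries, and the fold change was above 0 in each. DESeq2 called 1.19% of all genes in that comparison, edgeR without a filter 0.605% and without WT_CD replicate 2 7.79%. GLUT1 is also a protein of endothelium and red cells, and in bulk libraries fewer cells of a type and less RNA per cell cannot be told apart. The 10 endothelial markers summed to 62.5 to 149 CPM in WT_CD and 73.4 to 108 CPM in ApoeKO_HFD, ranges that overlap. Of the 10, 9 had a log2 fold change below 0 between these groups (median −0.35), where 49.3% of all genes were above 0. Against WT_CD, 10 of 10 were below 0 in ApoeKO_CD (median −0.64) and 4 of 10 in WT_HFD (median 0.05), where 48.7% of all genes were above 0 in each. None was called. The 6 erythroid genes, of which 1 passed the filter, summed to 0.253 to 1.203 CPM in WT_CD and 0.263 to 1.48 CPM in ApoeKO_HFD. The gene that passed was Hbb-bs, at 0 in WT_CD replicates 1 and 3. Its log2 fold change in edgeR's test was 3.74 between ApoeKO_HFD and WT_CD (adjusted p = 0.178), and those groups overlapped. Between WT_HFD and WT_CD it was 3.74 (adjusted p = 0.214), and those groups did not overlap. Hbb-bs was above 0 in ApoeKO_CD against WT_CD too, and it was called in none of these comparisons. Hba-a2, a globin gene, was at 0 in all 3 WT_CD libraries. It was also at 0 in all 3 ApoeKO_CD libraries, WT_HFD replicate 1 and ApoeKO_HFD replicate 1. The part of these markers in the Slc2a1 values was not tested.

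**Figure D3:**
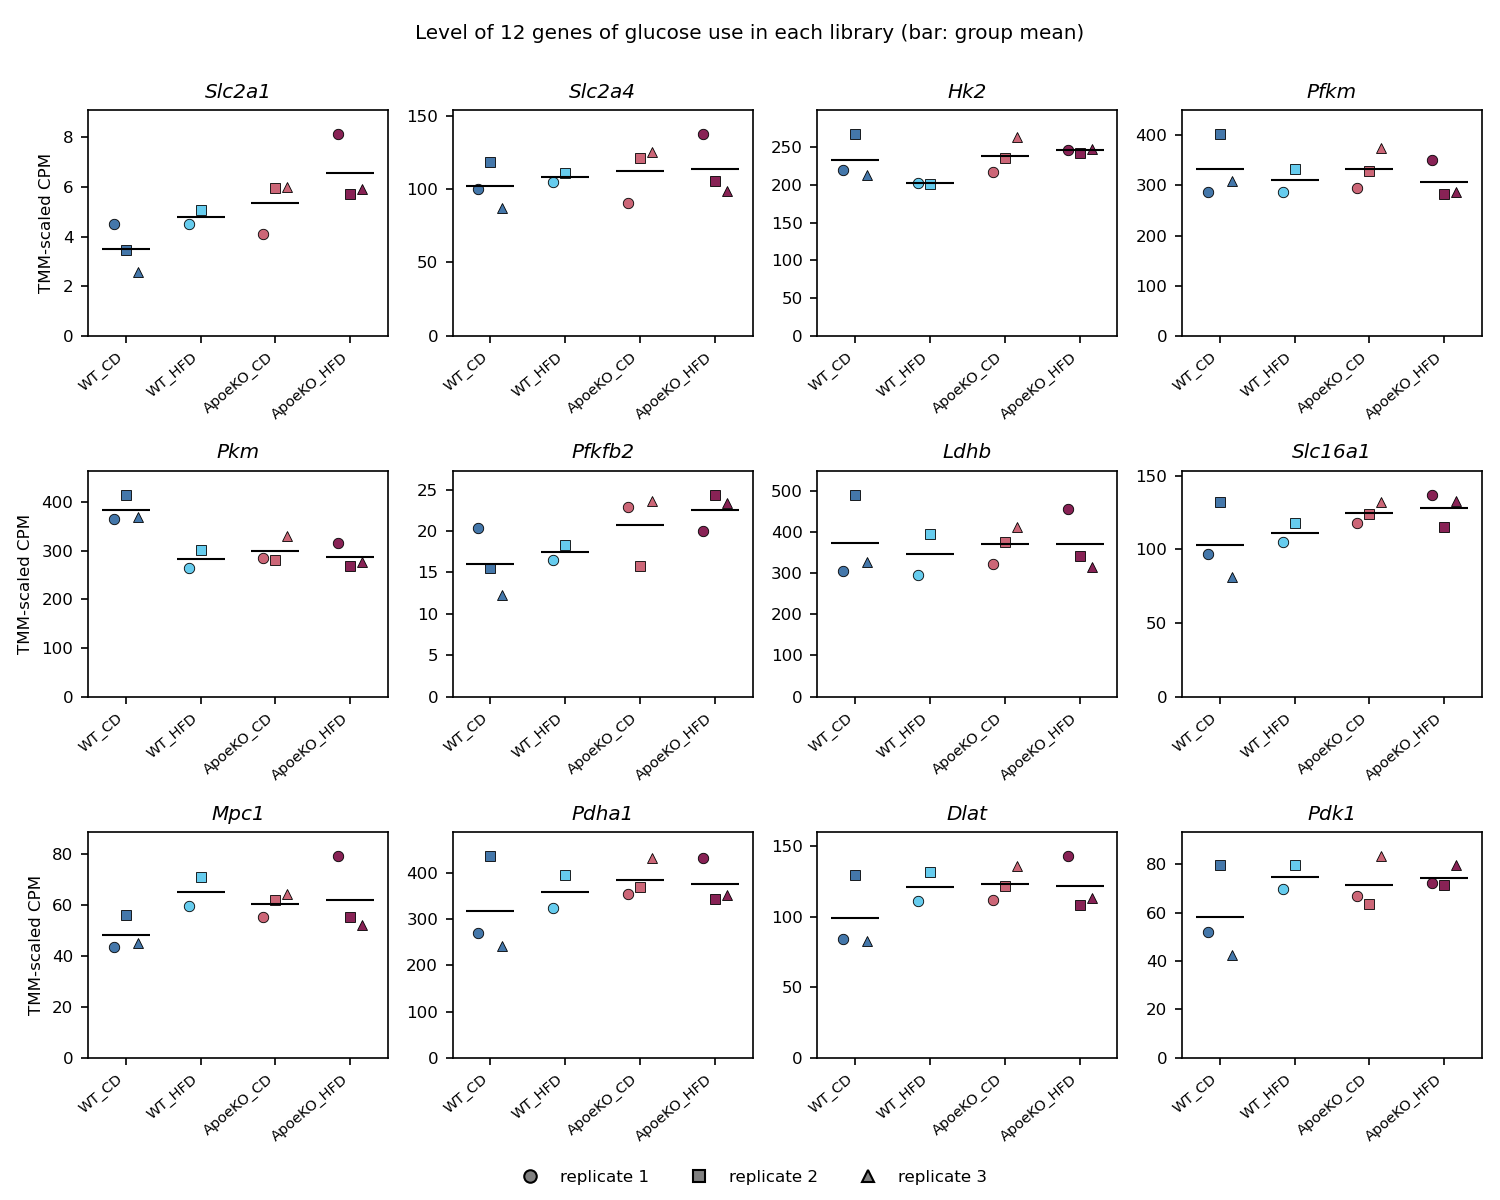
TMM-scaled CPM (y axis, from 0) of 12 genes of glucose use in each library of the 4 groups (x axis), with the group mean as a bar and the replicate number as the symbol. Slc2a1 and Pkm are the 2 genes shown whose ApoeKO_HFD and WT_CD libraries do not overlap, and WT_CD replicate 2 (square) stands above WT_CD replicates 1 and 3 for Slc16a1, Mpc1, Pdha1, Dlat and Pdk1.

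Slc2a4, which encodes the insulin-regulated carrier GLUT4, was 99.8, 119 and 86.99 CPM in WT_CD, 105 and 111 in WT_HFD, 90.9, 121 and 126 in ApoeKO_CD and 138, 106 and 98.96 in ApoeKO_HFD, and every pair of groups overlapped. Its log2 fold change was 0.16 (SE 0.16, adjusted p = 0.673) between ApoeKO_HFD and WT_CD, 0.09 (SE 0.18, adjusted p = 0.871) between WT_HFD and WT_CD and 0.14 (SE 0.16, adjusted p = 0.703) between ApoeKO_CD and WT_CD. Between ApoeKO_HFD and ApoeKO_CD it was 0.02 (SE 0.16, adjusted p = 1.00), with a 95% interval of −0.32 to 0.36, and between ApoeKO_HFD and WT_HFD 0.08 (SE 0.18, adjusted p = 1.00).

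Of the hexokinases, Hk2, the insulin-responsive form of muscle, was 219.8, 267 and 214 CPM in WT_CD, 203 and 201 in WT_HFD, 216, 235 and 264 in ApoeKO_CD and 247, 242 and 248 in ApoeKO_HFD. Both WT_HFD libraries were below every library of the other groups. On the log2 scale Hk2 differed by −0.21 (SE 0.14, adjusted p = 0.562) between WT_HFD and WT_CD and 0.28 (SE 0.15, adjusted p = 1.00) between ApoeKO_HFD and WT_HFD. It was 0.07 (SE 0.13, adjusted p = 0.832) between ApoeKO_HFD and WT_CD, 0.03 (SE 0.13, adjusted p = 0.931) between ApoeKO_CD and WT_CD and 0.04 (SE 0.13, adjusted p = 1.00) between ApoeKO_HFD and ApoeKO_CD. Hk1, the more widely expressed form, was 72.6, 68.04 and 75.9 CPM in WT_CD, 63.4 and 57.3 in WT_HFD, 77.4, 68.8 and 70.6 in ApoeKO_CD and 73.9, 73.3 and 72.5 in ApoeKO_HFD. It too was lowest in the 2 WT_HFD libraries, at −0.26 (SE 0.13, adjusted p = 0.419) on the log2 scale against WT_CD and 0.28 (SE 0.13, adjusted p = 1.00) for ApoeKO_HFD against WT_HFD.

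Both hexokinases thus stood apart between WT_HFD and WT_CD, as did Gpi1, Pkm, Pfkfb1 and Mpc1. These are 6 of 34 genes whose groups did not overlap in that comparison, against 24.7% of all genes tested, with 2 libraries in WT_HFD. Between ApoeKO_HFD and WT_HFD, Slc2a1, Hk1, Hk2, Pfkp, Pfkfb1 and Pfkfb2 did not overlap, 6 of 34 against 21.7% of all genes. Between ApoeKO_HFD and WT_CD there were 2 of 34 (Slc2a1 and Pkm) against 15.6%, between ApoeKO_CD and WT_CD 1 (Pkm) against 16.6%, and between ApoeKO_HFD and ApoeKO_CD 0 against 9.03%.

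In upper glycolysis, Gpi1 (glucose phosphate isomerase) ranged over 135 to 177 CPM, Aldoa over 456 to 626 CPM and Tpi1 (triose phosphate isomerase) over 66.3 to 95.04 CPM. Pfkm, the gene of the committed step in muscle, was 287, 402 and 308 CPM in WT_CD, 288 and 333 in WT_HFD, 295, 329.7 and 375 in ApoeKO_CD and 351, 283 and 287 in ApoeKO_HFD. WT_CD replicate 2 was the highest of the 11 libraries, and the groups overlapped. Its log2 fold change was −0.12 (SE 0.15, adjusted p = 0.765) between ApoeKO_HFD and WT_CD, −0.10 (SE 0.17, adjusted p = 0.84) between WT_HFD and WT_CD, 0.00 (SE 0.15, adjusted p = 0.996) between ApoeKO_CD and WT_CD, −0.12 (SE 0.15, adjusted p = 1.00) between ApoeKO_HFD and ApoeKO_CD and −0.02 (SE 0.17, adjusted p = 1.00) between ApoeKO_HFD and WT_HFD.

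The other phosphofructokinases were scarcer. Pfkl, the liver form, ranged over 32.9 to 47.4 CPM and Pfkp, the platelet form, over 15.8 to 24.1 CPM. The difference of Pfkp was −0.30 (SE 0.16, adjusted p = 0.439) on the log2 scale between WT_HFD and WT_CD and 0.38 (SE 0.21, adjusted p = 0.665) for the interaction. All 6 tested genes of upper glycolysis had a log2 fold change below 0 between ApoeKO_HFD and WT_CD (median −0.13) and between WT_HFD and WT_CD (median −0.20), where 49.3% and 48.7% of all genes were above 0, and none passed the test. Between ApoeKO_CD and WT_CD, 5 of the 6 were below 0 (median −0.19), where 48.7% of all genes were above 0. These comparisons share the WT_CD libraries. Between ApoeKO_HFD and ApoeKO_CD, 5 of the 6 were above 0 (median 0.05).

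The Pfkfb genes encode the bifunctional enzymes that make and break fructose 2,6-bisphosphate, the activator of phosphofructokinase. Pfkfb2, the heart form, was 20.4, 15.5 and 12.2 CPM in WT_CD, 16.5 and 18.3 in WT_HFD, 22.9, 15.8 and 23.6 in ApoeKO_CD and 19.995, 24.3 and 23.4 in ApoeKO_HFD. The 3 ApoeKO_HFD libraries were above both WT_HFD libraries, while WT_CD replicate 1 reached into the range of ApoeKO_HFD. Its log2 fold change was 0.49 (SE 0.18, adjusted p = 0.248) between ApoeKO_HFD and WT_CD, 0.37 (SE 0.18, adjusted p = 0.32) between ApoeKO_CD and WT_CD and 0.37 (SE 0.20, adjusted p = 1.00) between ApoeKO_HFD and WT_HFD. In the annotation, 17.4% of its exon length overlaps Gm29427 on the same strand. Pfkfb1 was 5.16, 6.004 and 5.56 CPM in WT_CD, 7.73 and 7.504 in WT_HFD, 4.44, 12.96 and 4.53 in ApoeKO_CD and 7.15, 4.52 and 3.76 in ApoeKO_HFD, with ApoeKO_CD replicate 2 alone above 8 CPM. Its log2 fold change was −0.48 (SE 0.36, adjusted p = 1.00) between ApoeKO_HFD and ApoeKO_CD and −0.93 (SE 0.53, adjusted p = 0.676) for the interaction. Pfkfb3 stayed within 1.32 to 3.18 CPM.

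In lower glycolysis, Pkm (ENSMUSG00000032294; GRCm38 chr9:59656368-59679375, plus strand), which encodes muscle pyruvate kinase, was 365, 414 and 370.2 CPM in WT_CD, 265 and 302 in WT_HFD, 284, 280.3 and 331 in ApoeKO_CD and 315, 269 and 277 in ApoeKO_HFD. All 3 WT_CD libraries were above all 8 libraries of the other groups. As log2 fold changes, Pkm had estimates of −0.42 (SE 0.13, adjusted p = 0.191) between ApoeKO_HFD and WT_CD, −0.44 (SE 0.15, adjusted p = 0.247) between WT_HFD and WT_CD and −0.36 (SE 0.13, adjusted p = 0.193) between ApoeKO_CD and WT_CD, so the estimate was negative in each comparison with WT_CD and passed the test in none of them. The 3 comparisons share the WT_CD libraries. Between ApoeKO_HFD and ApoeKO_CD the difference was −0.06 with a 95% interval of −0.33 to 0.22, and for the interaction it was 0.38 (SE 0.19, adjusted p = 0.639). DESeq2 called Pkm between ApoeKO_HFD and WT_CD (adjusted p = 0.0362), and over 14 alternatives the adjusted p ran from that value to 0.999, the last with all 12 libraries. The 6 skeletal muscle markers summed to 2.47 to 2.89 CPM in WT_CD and 1.03 to 2.18 CPM in the 8 other libraries, which do not overlap either, and their part in the Pkm values was not tested. Of its 50-base stretches, 25.8% occur in other genes, and 15.3% of its exon length overlaps Gm49759 on the same strand.

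The other genes of lower glycolysis overlapped between groups. Gapdh (glyceraldehyde phosphate dehydrogenase) was 245, 348 and 295 CPM in WT_CD, 318 and 355 in WT_HFD, 299, 328 and 358 in ApoeKO_CD and 417, 324 and 308 in ApoeKO_HFD, with WT_CD replicates 1 and 3 the lowest 2 of the 11 libraries. Pgk1 (phosphoglycerate kinase) ranged over 29.9 to 52.9 CPM, Pgam2 over 134 to 193 CPM, Pgam1 over 3.04 to 5.12 CPM, Eno3 over 180.1 to 259.9 CPM and Eno1 over 20.4 to 29.5 CPM. Gapdh had a log2 fold change of 0.24 between ApoeKO_HFD and WT_CD and Pgk1 0.22, neither past the test. Pgam1 had one of 0.23 (SE 0.21, adjusted p = 1.00) between ApoeKO_HFD and ApoeKO_CD. Several of these genes have near-identical processed copies elsewhere in the genome: 53.9% of the 50-base stretches of Pgk1 occur in other annotated genes, 36.2% of those of Pgam1, 25.99% of those of Eno1 and 25.1% of those of Gapdh. Reads from such stretches could be lost or split in the authors' counting, so their levels are uncertain.

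Among the lactate genes, Ldhb, whose product favours lactate use, was 306, 489 and 327 CPM in WT_CD, 296 and 396 in WT_HFD, 322, 376 and 411 in ApoeKO_CD and 457, 341 and 316 in ApoeKO_HFD, and Ldha, the form that favours lactate release, ranged over 100.1 to 128 CPM. Ldhb was highest in WT_CD replicate 2 and ApoeKO_HFD replicate 1, and its groups overlapped. Its log2 fold change was −0.01 between ApoeKO_HFD and WT_CD, with a 95% interval of −0.40 to 0.38. Slc16a1, which encodes the lactate and pyruvate carrier MCT1, was 96.9, 132 and 81.2 CPM in WT_CD, 105 and 118 in WT_HFD, 118, 124 and 132 in ApoeKO_CD and 137, 115 and 133 in ApoeKO_HFD. WT_CD replicates 1 and 3 were below every other library, and WT_CD replicate 2 was among the highest. For Slc16a1 the log2 fold change was 0.31 (SE 0.16, adjusted p = 0.374) between ApoeKO_HFD and WT_CD, 0.27 (SE 0.16, adjusted p = 0.398) between ApoeKO_CD and WT_CD and 0.11 (SE 0.17, adjusted p = 0.823) between WT_HFD and WT_CD. Slc16a3, which encodes the lactate exporter MCT4 of glycolytic muscle, had 1 to 15 counts a library, and a difference was not detectable at this depth.

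The genes of pyruvate entry shared a pattern against WT_CD. Mpc1 and Mpc2 encode the mitochondrial pyruvate carrier, Pdha1 and Pdhb the first enzyme of the pyruvate dehydrogenase complex, Dlat its second, and Pdk1 and Pdk2 kinases that inhibit it. All 7 had a log2 fold change above 0 in each of the 3 comparisons with WT_CD, with medians of 0.25 for ApoeKO_HFD, 0.29 for WT_HFD and 0.28 for ApoeKO_CD. None of the 7 was called, and the list holds the complex together with its inhibitors. The share of all genes above 0 was 49.3%, 48.7% and 48.7%. The 3 comparisons share the WT_CD libraries. Between ApoeKO_HFD and ApoeKO_CD the median of the 7 was 0.01, and for the interaction it was −0.27 with 0 of 7 above 0.

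The size of the medians against WT_CD rested on single WT_CD libraries. Without WT_CD replicate 2 they were 0.54, 0.54 and 0.56 for ApoeKO_HFD, WT_HFD and ApoeKO_CD. Without WT_CD replicate 1 they were 0.15, 0.08 and 0.18, and without WT_CD replicate 3 they were 0.15, 0.18 and 0.12. With WT_HFD replicate 3 included, the median for WT_HFD was −0.20 and 0 of 7 genes were above 0. The endothelial markers summed to 62.5 CPM in WT_CD replicate 2 and to 138 and 149 CPM in WT_CD replicates 1 and 3, and their part in the values was not tested.

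Mpc1 had the smallest p of the 7. It was 43.3, 55.95 and 45.1 CPM in WT_CD, 59.4 and 70.9 in WT_HFD, 55.2, 61.8 and 64.3 in ApoeKO_CD and 79.1, 55.05 and 51.9 in ApoeKO_HFD. Both WT_HFD libraries were above all WT_CD libraries, and ApoeKO_HFD replicates 2 and 3 lay within the range of WT_CD. Estimates for Mpc1 (log2 fold change) were 0.44 (SE 0.18, adjusted p = 0.311) between WT_HFD and WT_CD, 0.37 (SE 0.16, adjusted p = 0.307) between ApoeKO_HFD and WT_CD, 0.33 (SE 0.16, adjusted p = 0.328) between ApoeKO_CD and WT_CD and −0.40 (SE 0.24, adjusted p = 0.677) for the interaction. Mpc2 ranged over 34.9 to 76.01 CPM, Pdhb over 85.2 to 153 CPM and Pdk2 over 115 to 164 CPM. Of the 50-base stretches of Mpc1, 26.3% occur in other genes.

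Pdha1, Dlat and Pdk1 were looked at more closely after their values were seen, together with Slc16a1, because they were called when WT_CD replicate 2 was left out. Pdha1 was 271, 437 and 243 CPM in WT_CD, 324 and 396 in WT_HFD, 354, 370.4 and 433 in ApoeKO_CD and 434, 344 and 353 in ApoeKO_HFD. Dlat was 84.1, 129.7 and 82.4 CPM in WT_CD, 111 and 132 in WT_HFD, 112, 121 and 136 in ApoeKO_CD and 143, 108 and 113 in ApoeKO_HFD. Pdk1 was 52.1, 79.9 and 42.4 CPM in WT_CD, 69.9 and 79.7 in WT_HFD, 66.9, 63.8 and 83.4 in ApoeKO_CD and 72.5, 71.5 and 79.8 in ApoeKO_HFD. For each of them WT_CD replicates 1 and 3 were the lowest 2 of the 11 libraries, while WT_CD replicate 2 was the highest of the 11 for Pdha1 and within the range of the 8 others for Dlat and Pdk1.

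The log2 fold change of Pdk1 was 0.36 (SE 0.18, adjusted p = 0.38) between ApoeKO_HFD and WT_CD, 0.36 (SE 0.20, adjusted p = 0.455) between WT_HFD and WT_CD and 0.30 (SE 0.18, adjusted p = 0.434) between ApoeKO_CD and WT_CD. For Dlat the values were 0.30 (SE 0.17, adjusted p = 0.445), 0.30 (SE 0.19, adjusted p = 0.519) and 0.32 (SE 0.17, adjusted p = 0.369) in the same order. For Pdha1 they were 0.25 (SE 0.19, adjusted p = 0.566), 0.18 (SE 0.21, adjusted p = 0.732) and 0.28 (SE 0.19, adjusted p = 0.466). Without WT_CD replicate 2, edgeR's test called Slc2a1, Slc16a1, Pdk1, Dlat and Pdha1 between ApoeKO_HFD and WT_CD (5 of 34, against 7.79% of all genes), Pdk1 and Dlat between WT_HFD and WT_CD (2, against 6.09%), and Slc16a1, Pdk1, Dlat and Pdha1 between ApoeKO_CD and WT_CD (4, against 10.8%). All these genes were higher than in the 2 remaining WT_CD libraries. The number of all genes called then went from 26 to 1304, from 35 to 1019 and from 86 to 1801. WT_CD replicates 1 and 3 were the lowest 2 of the 11 libraries for 9 of the 34 glucose genes (Gapdh, Pgk1, Slc16a1, Mpc1, Mpc2, Pdha1, Pdhb, Dlat and Pdk1), against 12.3% of all genes tested.

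The upstream sequences of the 5 genes called without WT_CD replicate 2 are shown because these genes were called together. Each is the 250 bases before a RefSeq transcript start (GRCm38.p6), written 5′ to 3′ on the gene's strand, with capitals for matches on either strand to ACGTG or GCGTG, the core letters bound by the hypoxia-inducible factor, HIF, a known regulator of glycolytic genes. For Slc2a1 the window is chr4:119108495-119108744, plus strand, for Slc16a1 chr3:104638414-104638663, plus strand, for Pdk1 (the first of 2 starts) chr2:71872974-71873223, plus strand, for Pdha1 chrX:160138431-160138680, minus strand, and for Dlat chr9:50659781-50660030, minus strand.
Slc2a1: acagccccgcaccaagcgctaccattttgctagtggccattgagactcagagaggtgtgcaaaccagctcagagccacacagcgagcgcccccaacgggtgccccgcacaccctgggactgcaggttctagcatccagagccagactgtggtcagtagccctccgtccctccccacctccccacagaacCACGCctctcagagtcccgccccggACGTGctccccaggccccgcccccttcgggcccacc
Slc16a1: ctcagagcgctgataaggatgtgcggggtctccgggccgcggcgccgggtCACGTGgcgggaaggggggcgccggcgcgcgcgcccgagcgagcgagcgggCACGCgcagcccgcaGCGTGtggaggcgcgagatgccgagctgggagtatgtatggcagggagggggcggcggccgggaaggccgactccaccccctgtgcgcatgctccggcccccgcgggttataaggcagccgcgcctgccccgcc
Pdk1: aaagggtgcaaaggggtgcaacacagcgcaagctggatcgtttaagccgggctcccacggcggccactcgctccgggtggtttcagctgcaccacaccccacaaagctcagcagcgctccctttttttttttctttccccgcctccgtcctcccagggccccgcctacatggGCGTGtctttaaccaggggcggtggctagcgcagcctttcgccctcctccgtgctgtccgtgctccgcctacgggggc
Pdha1: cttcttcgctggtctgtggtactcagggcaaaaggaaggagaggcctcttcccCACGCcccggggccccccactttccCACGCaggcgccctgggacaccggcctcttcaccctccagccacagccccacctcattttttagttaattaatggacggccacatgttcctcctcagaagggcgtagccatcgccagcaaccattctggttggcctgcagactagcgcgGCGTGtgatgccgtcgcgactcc
Dlat: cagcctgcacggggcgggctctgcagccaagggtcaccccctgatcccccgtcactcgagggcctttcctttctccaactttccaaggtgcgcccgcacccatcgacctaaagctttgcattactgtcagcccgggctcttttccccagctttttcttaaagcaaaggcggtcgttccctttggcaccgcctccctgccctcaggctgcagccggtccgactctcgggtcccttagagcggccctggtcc

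The windows held 2 matches for Slc2a1, 4 for Slc16a1, 1 for Pdk1, 3 for Pdha1 and 0 for Dlat. The window of the second Pdk1 start, not shown, held 0. In Slc16a1, 2 of the 4 are the strands of CACGTG, the E-box, which contains the core on both strands. RefSeq gave 54 upstream windows for 34 of the 35 genes, and 39 of them (72.2%) held a match to the core, against 38.6% of 32851 windows of all genes and 52.6% of 14538 windows of the genes tested. The E-box was found in 11.1% of the windows of glucose genes and in 7.77% of those of the genes tested. Some genes have several starts, and windows of close starts overlap, as for Aldoa, Eno1 and Pfkm, so the same match can count more than once. The median GC content was 60.4% for glucose genes and 58.8% for genes tested. A match is a description of the letters, not a binding site.

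Of the glycogen genes, Gys1, the muscle glycogen synthase, ranged over 54.04 to 71.2 CPM, Pygm over 270.3 to 341 CPM and Pygb over 242 to 376 CPM. Pygm varied least of the 34 genes, with a highest value 1.26 times its lowest. Pygb had the smallest p of the 34 between ApoeKO_HFD and ApoeKO_CD, where its log2 fold change was −0.21 (SE 0.15, adjusted p = 1.00). In that comparison no gene of the 34 had an unadjusted p under 0.05, the fold changes ran from −0.48 to 0.30, and 24 of 34 were above 0 (51.2% of all genes).

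Between ApoeKO_HFD and WT_HFD, the comparison of genotypes on the high fat diet, 24 of 34 genes were above 0 (51.9% of all genes) with a median of 0.05. Hk1, Hk2, Slc2a1 and Pfkfb2 had the smallest p. The log2 fold change of Slc2a1 was 0.46 (SE 0.25, adjusted p = 1.00), with the lowest ApoeKO_HFD library at 5.71 CPM and the highest WT_HFD library at 5.08 CPM. For the interaction, defined as the diet effect in ApoE KO minus that in WT libraries, 17 of 34 genes were above 0. The values of the 4 genes of uptake and commitment were −0.14 (SE 0.33, adjusted p = 0.934) for Slc2a1, −0.07 (SE 0.24, adjusted p = 0.959) for Slc2a4, 0.25 (SE 0.19, adjusted p = 0.752) for Hk2 and −0.02 (SE 0.23, adjusted p = 0.992) for Pfkm.

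A further 61 genes of glucose use were looked at beside the 35: other isozymes and transporters, lactate and pyruvate genes, glycogen genes and regulators. Of these 58 were tested. Between ApoeKO_CD and WT_CD, 1 was called higher and 1 lower, against 0.508% of all genes called. In the other comparisons 0 of 58 were called by edgeR's test. An unadjusted p under 0.05 was found for 17 (29.3%, against 14.2% of all genes) between ApoeKO_HFD and WT_CD, 15 (25.9%, against 15.9%) between ApoeKO_CD and WT_CD and 11 (19.0%, against 12.9%) between WT_HFD and WT_CD. There were 2 (3.45%, against 1.53%) between ApoeKO_HFD and ApoeKO_CD, 5 (8.62%, against 2.83%) between ApoeKO_HFD and WT_HFD and 6 (10.3%, against 8.2%) for the interaction. The 61 genes too were chosen with earlier results of these data known, so a share above that of all genes is a description only. The comparisons with WT_CD share its libraries.

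The gene called higher was Slc16a7, which encodes the monocarboxylate carrier MCT2. It was 1.803, 2.16 and 1.92 CPM in WT_CD, 4.14 and 3.18 in WT_HFD, 4.11, 4.89 and 4.25 in ApoeKO_CD and 3.13, 3.55 and 3.88 in ApoeKO_HFD. All 8 libraries of the other groups were above the 3 of WT_CD. The log2 fold change was 1.17 (SE 0.21, adjusted p = 0.0104) between ApoeKO_CD and WT_CD, 0.85 (SE 0.21, adjusted p = 0.106) between ApoeKO_HFD and WT_CD, 0.90 (SE 0.22, adjusted p = 0.132) between WT_HFD and WT_CD and −1.22 (SE 0.30, adjusted p = 0.159) for the interaction. Without ApoeKO_CD replicate 2 the first had an adjusted p of 0.0704, and over 14 alternatives it ran from 0.000255 to 0.679, with 11 calls. Slc16a7 was also called between ApoeKO_HFD and WT_CD by DESeq2 (adjusted p = 0.0467), by edgeR with no filter on low counts (0.0334) and without WT_CD replicate 2 (0.0196), in a range of 0.0196 to 0.999 over 14 alternatives. Between WT_HFD and WT_CD it was called with no filter (0.0327) and without WT_CD replicate 2 (0.0227), in a range of 0.0227 to 0.724 over 13. For the interaction it was called without WT_CD replicate 2 (0.0335), in a range of 0.0335 to 0.937 over 18. The immediate early genes given above did not overlap between ApoeKO_CD and WT_CD, and their part in these values was not tested.

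The gene called lower was Gpd1, the cytosolic glycerol phosphate dehydrogenase that draws triose from glycolysis. It was 24.6, 24.2 and 33.3 CPM in WT_CD, 18.2 and 20.95 in WT_HFD, 15.9, 17.5 and 18.7 in ApoeKO_CD and 22.4, 21.3 and 20.6 in ApoeKO_HFD. Every library of the other groups was below the 3 of WT_CD. Gpd1 was at −0.66 (SE 0.14, adjusted p = 0.0433) on the log2 scale between ApoeKO_CD and WT_CD, 0.30 (SE 0.14, adjusted p = 1.00) between ApoeKO_HFD and ApoeKO_CD and 0.79 (SE 0.21, adjusted p = 0.246) for the interaction. Against WT_CD it was also at −0.35 in ApoeKO_HFD and −0.48 in WT_HFD, and it was called in neither. The 3 comparisons with WT_CD share its libraries. The call on chow was lost when WT_CD replicate 3 or any of the 3 ApoeKO_CD libraries was left out, with adjusted p of 0.134 to 0.168, and with the replicate number as a block it was 0.0708. Over 14 alternatives the adjusted p ran from 0.00326 to 0.973, with 6 calls. The interaction of Gpd1 was called without WT_CD replicate 2 (adjusted p = 0.0335), in a range of 0.0335 to 0.937 over 18 alternatives.

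Pdk4, the pyruvate dehydrogenase kinase known to be induced by fasting and fatty acids, was 451, 478 and 397 CPM in WT_CD, 225 and 400.1 in WT_HFD, 154, 321 and 239.5 in ApoeKO_CD and 241, 128 and 231 in ApoeKO_HFD. The 3 ApoeKO_HFD libraries were below the 3 of WT_CD, and WT_HFD replicate 2 lay within the range of WT_CD. Its log2 fold change between ApoeKO_HFD and WT_CD was −1.14 (SE 0.29, adjusted p = 0.148), which missed the threshold. Phkg1, a phosphorylase kinase subunit, had the smallest p of the further genes between ApoeKO_HFD and ApoeKO_CD, at −0.55 (SE 0.19, adjusted p = 1.00) on the log2 scale. Between ApoeKO_HFD and WT_HFD the smallest were those of Tbc1d1, which restrains GLUT4 traffic, at −1.01 (SE 0.30, adjusted p = 1.00), and Arrdc4, a glucose-induced relative of Txnip, at −0.67 (SE 0.23, adjusted p = 1.00). With no filter on low counts Tbc1d1 was called at −1.05 (adjusted p = 0.0146), in a range of 0.0146 to 1.00 over 13 alternatives.

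The glucose genes also varied together between libraries of the same group. They took 1.16 to 1.44% of the counts on nuclear genes. Of the 34, 25 were highest of their group in WT_CD replicate 2, 25 in WT_HFD replicate 2, 29 in ApoeKO_CD replicate 3 and 29 in ApoeKO_HFD replicate 1, where the same libraries were highest for 36.8%, 49.99%, 33.8% and 37.6% of all genes tested. All 7 genes of lower glycolysis were highest in ApoeKO_CD replicate 3 and in ApoeKO_HFD replicate 1 of their groups. Of the 7 genes of pyruvate entry, all were highest in WT_CD replicate 2, WT_HFD replicate 2 and ApoeKO_CD replicate 3, and 6 in ApoeKO_HFD replicate 1.

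The median gene of the 34 stood 0.24 (log2) above its own mean over 11 libraries in ApoeKO_HFD replicate 1, 0.16 above it in ApoeKO_CD replicate 3 and 0.16 above it in WT_CD replicate 2, where the median over all genes tested stood at 0.01, −0.01 and −0.00. In WT_HFD replicate 2 it stood only 0.058 above, where the median over all genes tested stood at 0.003. Each of the 4 libraries had the lowest share of counts on the mitochondrial genome in its group: 57.4% against 62.9% and 64.4% in WT_CD, 64.6% against 66.9% in WT_HFD, 51.5% against 57.8% and 69.3% in ApoeKO_CD, and 55.4% against 64.0% and 71.3% in ApoeKO_HFD. In ApoeKO_CD replicate 2, with a share of 57.8%, the median gene of the 34 stood 0.005 above its mean. The part of the mitochondrial share in the values was not tested.

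**Figure D4:**
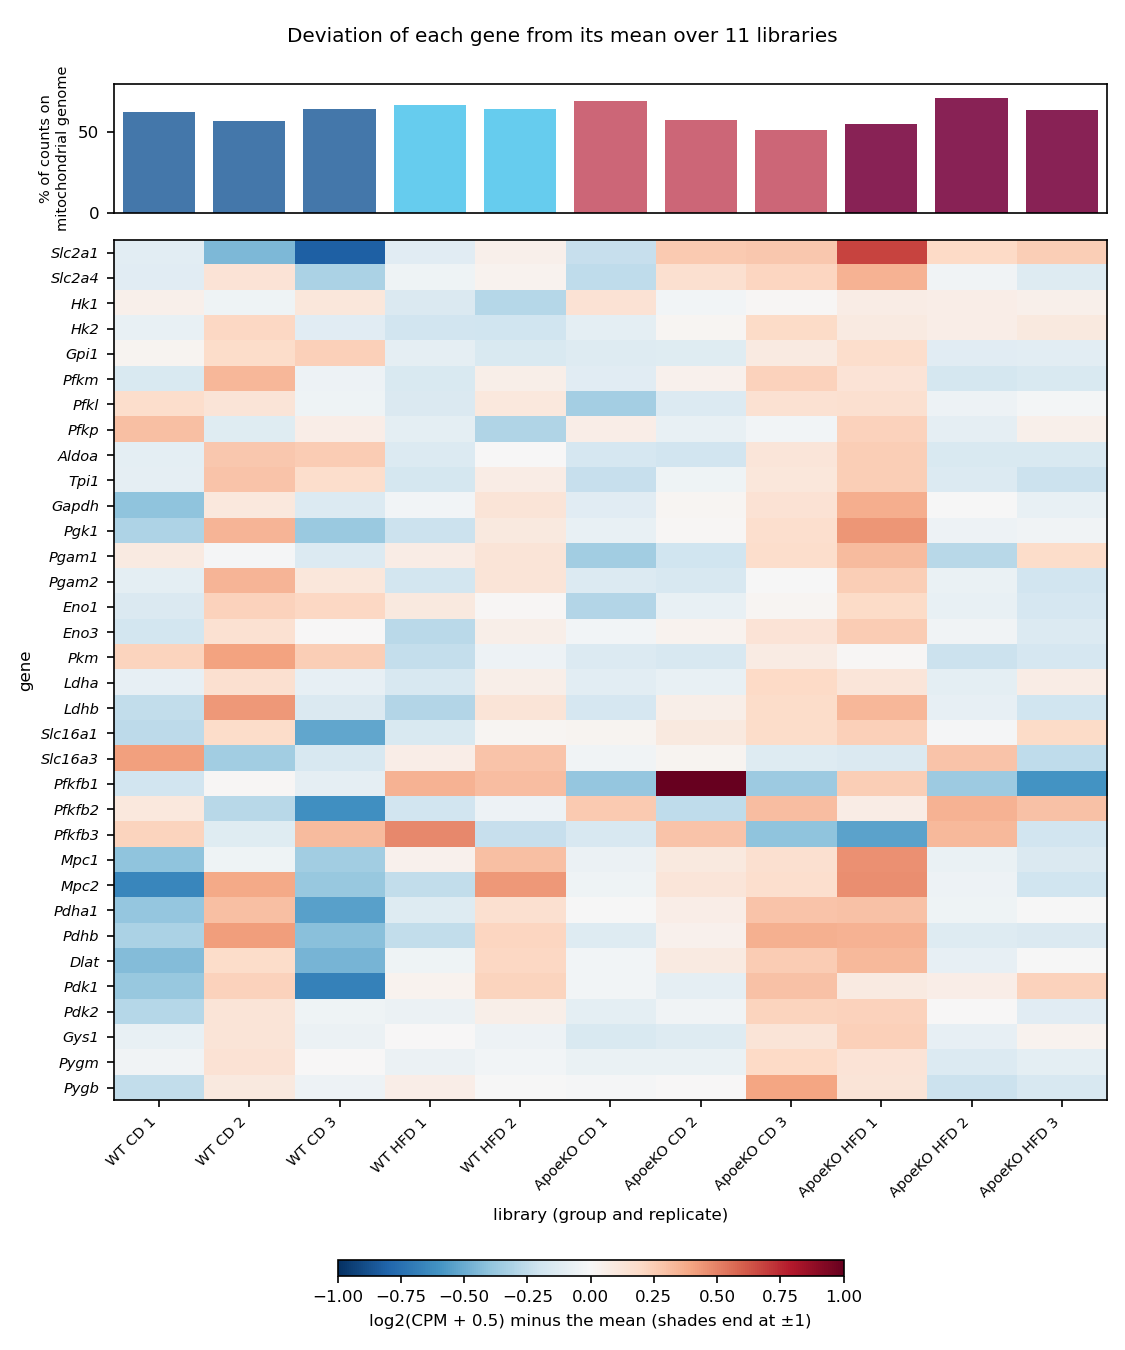
Lower panel: difference of log2(CPM + 0.5) from the mean over 11 libraries (colour, red above and blue below) for the 34 genes (y axis) in each library (x axis); upper panel: percent of each library's counts on the mitochondrial genome. The columns of WT_CD replicate 2, ApoeKO_CD replicate 3 and ApoeKO_HFD replicate 1 are mostly red, and WT_CD replicates 1 and 3 are blue for most of the genes of pyruvate entry.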

How the data were processed

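RNA from cardiomyocytes was made into stranded SMART-Seq libraries, per the labels' protocols. The authors deposited raw counts per Ensembl gene, 1 file for each of 12 libraries. The submitters' processing notes name Trimmomatic 0.39, STAR 2.7a, HTSeq 0.13.5 and the build GRCm38 (mm10), with no settings.

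Counts were tested as deposited with edgeR 4.0.16 in R 4.3.3: TMM scaling, filterByExpr, 1 mean for each of 4 groups, a robust quasi-likelihood F test with 7 residual degrees of freedom, and Benjamini-Hochberg adjustment over 16932 genes in each comparison. WT_HFD replicate 3 was left out of the fit. The common biological coefficient of variation was 0.200. The 11 libraries used held 22130323 to 46424614 counts, so for most of the genes the precision was set by the spread between libraries. Symbols were matched for 55154 of 55335 identifiers.

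The alternatives were all 12 libraries, RLE size factors, other filters on low counts, a replicate block, no mitochondrial genes, only the 2 groups compared, DESeq2 1.42.0 and leaving out each library. Every gene of the list is named. Statistics are given for the 4 with the smallest p in a comparison, and for Slc2a1, Slc2a4, Hk2 and Pfkm in each. Of the further genes, those called or the 2 with the smallest p are named, except 1 that is not reported here. The genes and lists were chosen with earlier results of these data known.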

Additional observations from a re-analysis of the deposited data

How the results depend on the processing

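The count of glucose genes called was 0 in 81 of 86 alternatives. Between ApoeKO_HFD and WT_CD it was 1 with no filter on low counts, 2 with DESeq2 and 0 to 5 on leaving out 1 library. On leaving out 1 library it was 0 to 2 between WT_HFD and WT_CD and 0 to 4 between ApoeKO_CD and WT_CD. Of 956 values of single genes under an alternative, 874 kept their direction and side of the threshold, 11 were no longer called, 23 became called and 48 reversed. With all 12 libraries the log2 fold change between WT_HFD and WT_CD was −0.11 for Mpc1, 0.15 for Pfkp, −0.14 for Pdk1, −0.43 for Slc16a1, −0.20 for Dlat and −0.31 for Pdha1. It was then −0.00559 for Pfkm between ApoeKO_CD and WT_CD, −0.054 for Slc2a4 and 0.41 for Pfkm between ApoeKO_HFD and WT_HFD, and −0.071 for Pfkp, 0.15 for Mpc1 and 0.41 for Pfkm for the interaction. With no filter, Pfkm was at 0.020 between WT_HFD and WT_CD. With a filter of 50 counts in 3 libraries, Hk2 was at −0.0044 and Pfkm at −0.032 between ApoeKO_CD and WT_CD, and Pfkm at 0.019 for the interaction. Between ApoeKO_CD and WT_CD, Pfkm was also at −0.010 with RLE size factors, −0.026 with only the 2 groups compared and −0.00202 with DESeq2. On leaving out 1 library, the values that reversed ran from −0.22 to 0.045 (Pfkm, ApoeKO_HFD and WT_CD), −0.020 to 0.21 (Slc2a4), −0.20 to 0.060 (Pfkm) and −0.042 to 0.32 (Slc16a1) between WT_HFD and WT_CD, and −0.80 to 0.20 (Pfkfb1), −0.13 to 0.10 (Slc2a4) and −0.021 to 0.12 (Hk2) between ApoeKO_HFD and ApoeKO_CD. They ran from −0.043 to 0.14 (Hk2) and −0.10 to 0.16 (Pfkm) between ApoeKO_CD and WT_CD, −0.076 to 0.16 (Slc2a4) and −0.13 to 0.085 (Pfkm) between ApoeKO_HFD and WT_HFD, and −0.37 to 0.048 (Slc2a1), −0.22 to 0.040 (Slc2a4) and −0.18 to 0.081 (Pfkm) for the interaction. The cause was not tested. With the longest transcript as length, the mean share of a gene in its family or pair was 28.1% for Hk1, 89.1% for Pfkm, 91.8% for Eno3, 81.8% for Ldhb, 58.5% for Pygm and 81.3% for Mpc1. With no length scaling it was 23.3% for Hk1, 83.8% for Pfkm, 97.4% for Pgam2, 89.6% for Eno3, 76.3% for Ldhb, 67.2% for Pdk2, 50.9% for Pygm and 51.2% for Mpc1. With the replicate number as a block, 0 glucose genes were called in each comparison, and the calls over all genes went from 26 to 14 between ApoeKO_HFD and WT_CD, 35 to 19 between WT_HFD and WT_CD and 86 to 61 between ApoeKO_CD and WT_CD. Of 15 same-numbered pairs, 1 had a correlation of deviations over 0.1 (−0.180 to 0.190). With so few libraries in a group, these correlations cannot decide whether same-numbered libraries share more than a number. Calls over all genes between ApoeKO_HFD and WT_CD were 168 with DESeq2, 296 with no filter, 0 with all 12 libraries, and 1, 0 and 0 without ApoeKO_HFD replicates 1, 2 and 3.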
